A study of Homo sapiens with 3 samples.

Results

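Lysosomal genes were followed in NB4 cells, an established human acute promyelocytic leukaemia line, after short hairpin RNAs had lowered ARID1B, a subunit of the BAF chromatin remodelling complex. The set holds 55 genes of 57773 in the count table, picked by symbol: hydrolases of the lysosome, membrane and accessory proteins, subunits of the V-type proton pump, both mannose 6-phosphate receptors and the transcription factors TFEB and TFE3. All 55 had a row, and 54 had enough counts to be tested. The series compared 1 library of cells with a non-target hairpin and 2 libraries of cells with a hairpin against ARID1B, hairpin 2 in one and hairpin 3 in the other. All 3 were grown in the same medium with serum, and polyA RNA was sequenced to between 59997475 and 62954803 counts. How the hairpins were delivered, and whether each library stands for its own culture, is not given in the sources used here, so p-values measure only how much these samples scatter, and that scatter may be technical.

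Lysosomes are acidic compartments in which soluble hydrolases break down proteins, glycans, lipids and nucleic acids. The V-ATPase pumps protons inward to keep them acidic, most of the enzymes reach them with a mannose 6-phosphate tag that the receptors M6PR and IGF2R recognise, and the related factors TFEB and TFE3 activate many of the genes through a short promoter element built on the letters CACGTG. Myeloid cells are rich in lysosomal enzymes, and the azurophil granules of promyelocytes hold several of them.

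The targeted gene was checked first. ARID1B had 5268 counts with the control hairpin, 2209 with hairpin 2 and 2234 with hairpin 3, a log2 fold change of -1.23 ± 0.125 (SE; edgeR quasi-likelihood test, adjusted p = 1.4e-05). NB4 identity genes were in place in every library, with MPO at 682719 to 836096 counts, MYB at 25352 to 29598, AZU1 at 8943 to 11403 and CD33 at 3273 to 3938, while ELANE and KIT stayed at 10 counts or fewer. PRTN3, a granule protease, was the 1 gene of 9 tested in this list that rose, from 3363 counts to 14914 and 13672. In bulk RNA, a change in the make-up of the culture and a change in RNA per cell cannot be told apart. Over all genes tested, 5.49% were called higher and 3.21% lower (edgeR, adjusted p under 0.05). Markers of eosinophils, basophils and mast cells moved with the knockdown: 9 of 12 rose and none stood at 0 in all libraries. Their summed level was 93.8 CPM (normalised counts scaled to a common library total) in the control, 2151 under hairpin 2 and 1134 under hairpin 3. PRG2 was the largest part of that sum, at 66.7, 1260 and 709 CPM. It shares 43% of its exon length with AP000781.2 on the same strand, so its counts are uncertain. EPX (643 counts in the control, 31820 under hairpin 2 and 14820 under hairpin 3) and HDC (663, 20431 and 10100) also rose, with 0% of their exon length shared. MS4A2, IL5RA and CCR3 did not pass, and none of the 12 fell. For monocytes and macrophages 2 of 6 tested markers rose and the summed level was 18.8, 49.4 and 27.3 CPM, with C1QB at 0 everywhere, MSR1 at no more than 2 counts, CD14 at 5, 16 and 13 counts and CD163 at 0, 14 and 4. The part of these markers in the lysosomal results was not tested.

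With ARID1B silenced, 24 of the 54 tested lysosomal genes rose and 1 fell. Over all 20382 genes tested, 5.49% were called higher and 3.21% lower (edgeR, Benjamini-Hochberg adjusted p under 0.05). Among the members the shares were 44.4% and 1.85%. The members were chosen with earlier results of these data known, so this difference from all genes is only a description. The median log2 fold change of the members was 0.45, against -0.01 for all genes tested, and 50 of 54 were above 0, against 48.5% of all genes. The rises were modest in size: 5 of the 24, CTSD, CTSZ, SMPD1, CTSA and HEXA, reached 2-fold. Summed, the members held 0.377% of the control library (Wilson 95% bounds 0.376 and 0.379). Their share was 0.586% with hairpin 2 (bounds 0.584 and 0.588) and 0.530% with hairpin 3 (bounds 0.528 and 0.532). Both hairpin libraries lay above the control for 49 of the 54 tested members and below it for 4, where 36.9% and 41.0% of all genes tested did so. Both hairpins are set against the same control library, so these counts are not independent of each other.

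**Figure D1:**
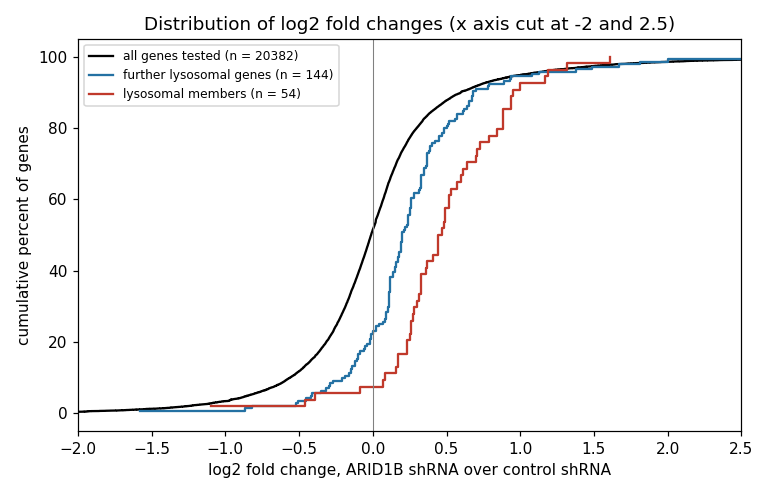
Cumulative share of genes (percent) by log2 fold change, ARID1B shRNA over control shRNA, for all genes tested, the 144 tested genes of the further lysosomal lists and the 54 tested members. The curve of the members lies to the right of that of all genes, with medians of 0.45 and -0.01. The members and further lists were chosen with earlier results of these data known.

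The number of calls changed with the filter for low counts and on the fold asked for. Without the filter no gene passed in edgeR, members included (31 of 55 members and 3218 genes had an unadjusted p under 0.05; 39 of 54 members and 4226 genes with the filter), and against a fold change of 1.5 the calls were 4 members, CTSA, CTSD, CTSZ and HEXA. Under the other 7 alternatives between 19 and 26 members were higher, and 19 of the 24 rises passed in each of them.

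The windows upstream of some members are printed here because they hold the CACGTG element through which the TFEB family is known to act. Sequences are from RefSeq on GRCh38.p14, while the counts were made on hg19, and genes were matched by symbol, which gave a window for 39 of the 55 members. Each window runs from 250 bases before the annotated start to 50 after it. The 250 bases before the start are shown, 5′ to 3′ on the gene's strand, with CACGTG in capitals. CTSD, CTSA, ATP6V0D1 and GALNS rose, whereas GAA and MCOLN1 hold 2 copies each and did not pass the threshold.
CTSD (chr11:1763928-1764177, minus strand): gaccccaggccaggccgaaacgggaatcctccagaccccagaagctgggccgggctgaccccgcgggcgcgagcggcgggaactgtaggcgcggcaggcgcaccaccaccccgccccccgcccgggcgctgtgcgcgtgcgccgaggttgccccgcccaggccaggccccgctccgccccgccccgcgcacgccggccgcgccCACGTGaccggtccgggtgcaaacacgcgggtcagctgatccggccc
CTSA (chr20:45891085-45891334, plus strand): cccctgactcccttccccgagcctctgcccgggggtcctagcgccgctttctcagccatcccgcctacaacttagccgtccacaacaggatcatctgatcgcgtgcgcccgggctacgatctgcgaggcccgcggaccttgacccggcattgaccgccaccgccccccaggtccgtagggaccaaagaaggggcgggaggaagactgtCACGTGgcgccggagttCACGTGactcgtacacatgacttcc
ATP6V0D1 (chr16:67481158-67481407, minus strand): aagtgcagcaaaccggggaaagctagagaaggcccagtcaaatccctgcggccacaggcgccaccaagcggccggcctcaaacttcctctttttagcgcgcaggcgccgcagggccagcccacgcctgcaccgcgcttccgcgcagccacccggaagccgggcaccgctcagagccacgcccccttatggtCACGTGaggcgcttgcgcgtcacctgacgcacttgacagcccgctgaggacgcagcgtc
GALNS (chr16:88856948-88857197, minus strand): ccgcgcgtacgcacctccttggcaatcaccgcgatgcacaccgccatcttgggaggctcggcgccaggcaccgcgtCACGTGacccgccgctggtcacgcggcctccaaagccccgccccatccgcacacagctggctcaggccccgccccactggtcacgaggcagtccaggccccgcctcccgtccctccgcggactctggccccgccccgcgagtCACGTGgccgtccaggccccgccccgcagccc
GAA (chr17:80101331-80101580, plus strand): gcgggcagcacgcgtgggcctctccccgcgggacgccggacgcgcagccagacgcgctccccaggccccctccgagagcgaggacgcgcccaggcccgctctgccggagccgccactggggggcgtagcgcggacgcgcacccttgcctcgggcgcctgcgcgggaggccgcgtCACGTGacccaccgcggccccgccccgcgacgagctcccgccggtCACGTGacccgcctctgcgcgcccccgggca
MCOLN1 (chr19:7522374-7522623, plus strand): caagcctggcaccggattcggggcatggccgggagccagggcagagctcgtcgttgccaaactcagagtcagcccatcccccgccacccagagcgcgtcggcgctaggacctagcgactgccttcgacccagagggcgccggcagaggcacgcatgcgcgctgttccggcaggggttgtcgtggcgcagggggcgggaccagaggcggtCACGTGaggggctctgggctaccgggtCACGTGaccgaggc

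CACGTG reads the same on both strands, so 1 search covers both. It stood in the windows of 12 of 39 members (30.8%), against 8.77% of 27305 genes with a window and 12.4% of the 11015 among them that were tested. Its longer form TCACGTGA, every match of which is also a CACGTG match, was found in 8 of 39 members (20.5%), 1.18% of all genes and 2.12% of tested genes. Split by call, 5 of 18 risers with a window had CACGTG (27.8%) and 7 of 20 that did not pass (35.0%). Members with the element had a median log2 fold change of 0.46 and members without it 0.47. LAMP1 held 6 copies and IGF2R 3, and neither passed. In CTSA the copies began 42 and 25 bases before the start, in CTSD 47, in ATP6V0D1 59, in GALNS 174 and 32, in GAA 76 and 31, and in MCOLN1 41 and 14. A match is a description of the letters and not evidence of binding.

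TFEB and TFE3 themselves did not pass. TFEB had 354 counts in the control, 374 under hairpin 2 and 465 under hairpin 3 (log2 fold change 0.26 ± 0.205, SE; adjusted p = 0.529). TFE3 had 1954, 2289 and 2001 counts (0.16 ± 0.146; adjusted p = 0.611). Both hairpin libraries were above the control for each. The exact 95% counting interval of the ratio to the control included 1 for TFEB under hairpin 2 (0.941 to 1.27) and TFE3 under hairpin 3 (0.958 to 1.09). It lay above 1 for TFEB under hairpin 3 and TFE3 under hairpin 2. Per exon length TFE3 was the more abundant, at 7.35 RPKM (CPM per kilobase of exon) in the control library against 1.01 for TFEB.

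**Figure D2:**
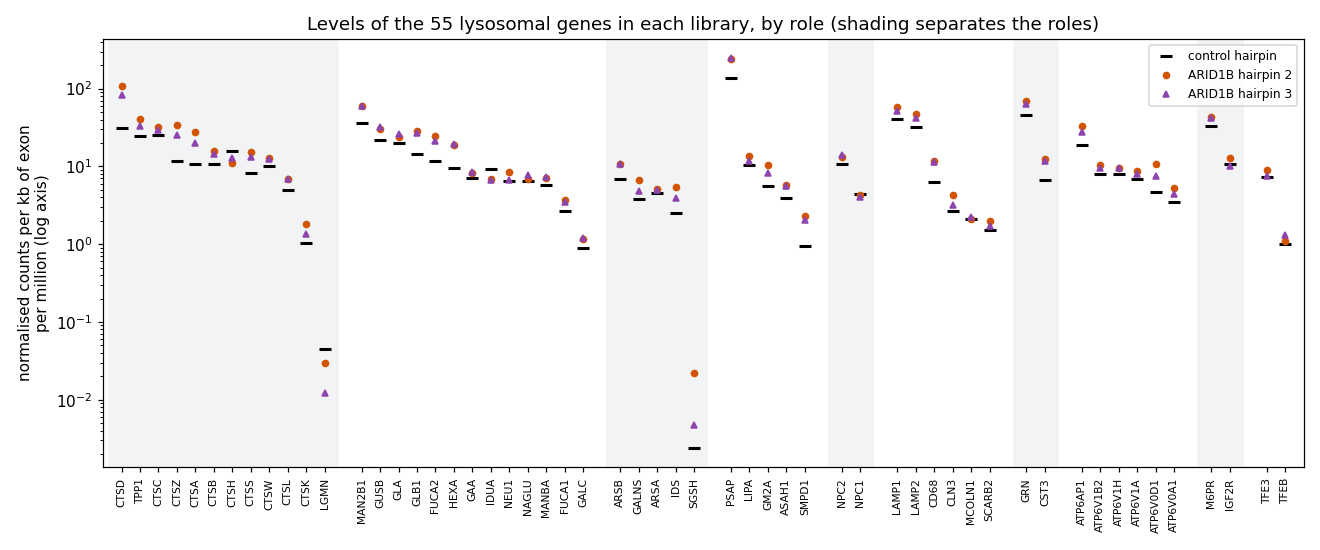
Levels of the 55 members in each library on a log axis, in RPKM, grouped by role and ordered by level within a role. PSAP is at the top in all 3 libraries, and LGMN and SGSH lie below 0.05 in all 3.

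The calls by role stand beside the shares over all genes tested, 5.49% higher and 3.21% lower. Among the 12 lysosomal proteases, 6 rose: CTSD, CTSZ, CTSA, CTSS, TPP1 and CTSB. Cathepsin D (CTSD, ENSG00000117984), the main aspartic protease of the lysosome, had 6103 counts in the control, 20448 under hairpin 2 and 16082 under hairpin 3. The hairpin libraries stood at 3.46 and 2.62 times the control (exact 95% counting intervals 3.36 to 3.56 and 2.55 to 2.70), and the log2 fold change of 1.61 ± 0.172 (adjusted p = 2.0e-05) was the highest of the set. Both knockdown libraries were well above the control, hairpin 2 more so. CTSD shares 41.7% of its exon length with AC068580.4 on the same strand, so its counts are uncertain. Cathepsin Z (CTSZ, ENSG00000101160), a carboxypeptidase, went from 1511 counts to 4146 and 3258 (1.32 ± 0.167; adjusted p = 8.6e-05). Cathepsin A (CTSA, ENSG00000064601), a serine carboxypeptidase that also protects GLB1 and NEU1 in a complex, went from 3849 to 9630 and 7349 (1.17 ± 0.169; adjusted p = 2.9e-04). In all 3 genes hairpin 2 gave the higher level. Both hairpin libraries lay above the lone control library, as they did for 36.9% of all genes tested.

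The other 3 protease rises were smaller. Cathepsin S (CTSS), a cysteine protease of antigen-presenting cells, had 2158, 3872 and 3496 counts in the control and under hairpins 2 and 3 (0.79 ± 0.141; adjusted p = 0.00174). TPP1, which removes tripeptides from protein ends, had 9982, 15889 and 13321 (0.57 ± 0.151; adjusted p = 0.0262). Cathepsin B (CTSB), a cysteine protease, had 4982, 7077 and 6649 (0.48 ± 0.134; adjusted p = 0.0333). TPP1 and CTSB lost their calls when genes under a mean of 1 CPM were dropped (edgeR adjusted p = 0.0773 and 0.0665; lowest and highest of all alternatives 0.0129 and 1 for TPP1, 0.0207 and 1 for CTSB).

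The remaining 6 proteases did not pass. Cathepsin C (CTSC), the dipeptidase that activates the granule serine proteases of myeloid cells, was close to TPP1 in level at 25.6 RPKM in the control and had 18188, 22186 and 21113 counts (0.27 ± 0.142). Cathepsin L (CTSL), CTSK and CTSW had log2 fold changes of 0.44 ± 0.159, 0.61 ± 0.281 and 0.31 ± 0.148. Cathepsin H (CTSH), an aminopeptidase, lay below the control in both libraries, with 5722, 3886 and 4714 counts (-0.39 ± 0.134; adjusted p = 0.0877), and was called lower with upper quartile factors and with library size alone (edgeR adjusted p = 0.0479 and 0.0499; all alternatives 0.0479 to 1). Legumain (LGMN), an asparaginyl endopeptidase, was nearly silent, at 11, 7 and 3 counts. The protease set thus ranged from -1.10 in LGMN to 1.61 in CTSD, with a median of 0.53.

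**Figure D3:**
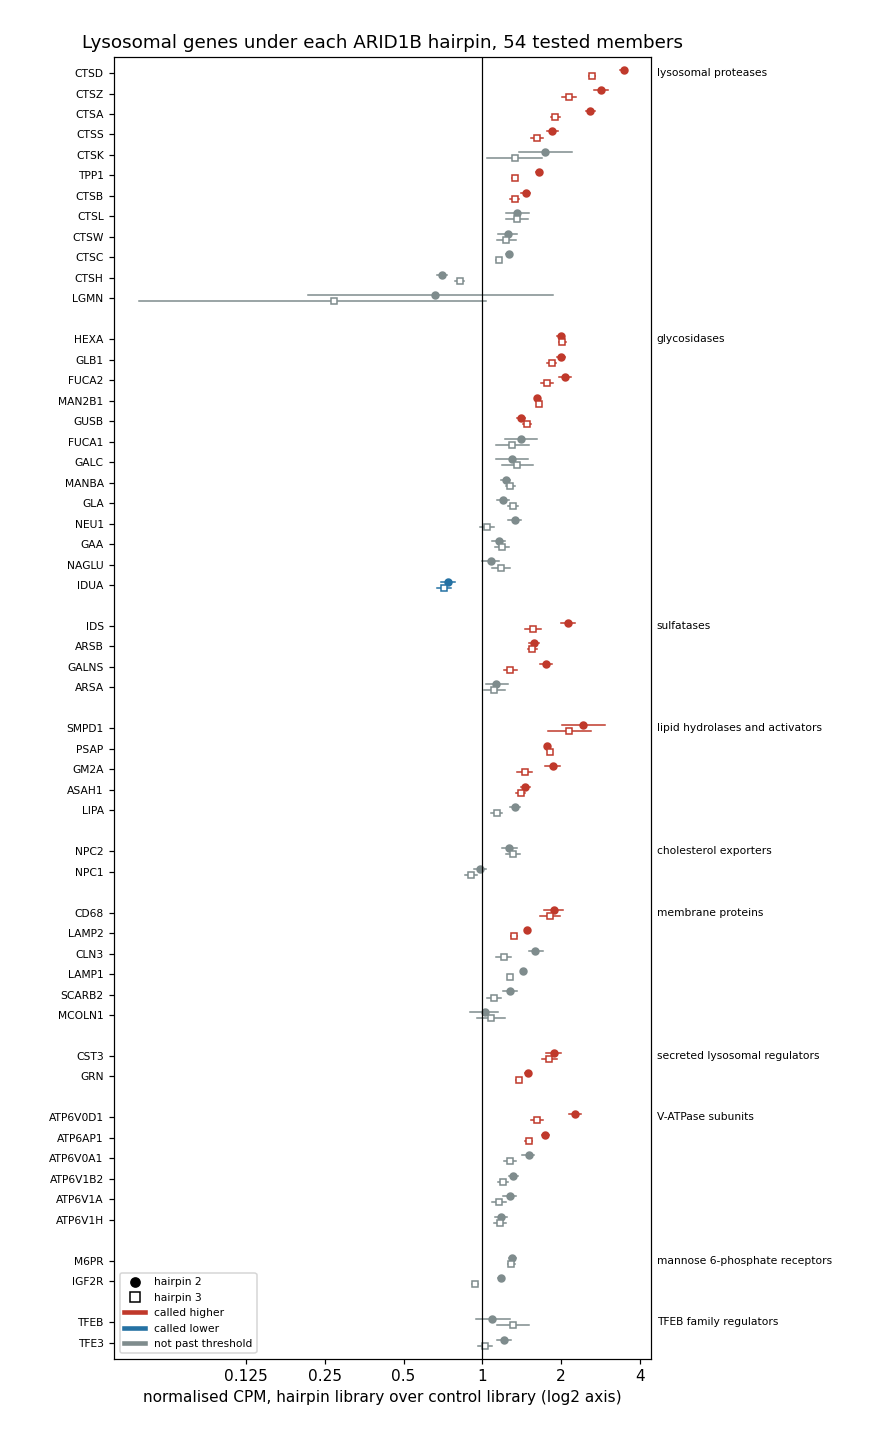
Ratio of normalised CPM in each ARID1B hairpin library to the control library on a log2 axis, for the 54 tested members by role; filled circles are hairpin 2, open squares hairpin 3, and bars are exact 95% counting intervals, which cover counting error only. CTSD has the highest ratios, 3.46 and 2.62, and IDUA is the called member below 1.

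Of 13 glycosidases 5 rose and 1 fell. HEXA, the alpha subunit of beta-hexosaminidase, had 7510 counts in the control, 14469 under hairpin 2 and 15228 under hairpin 3, at 1.99 and 2.02 times the control (1.0 ± 0.137; adjusted p = 1.7e-04). GLB1, the lysosomal beta-galactosidase, had 3910, 7540 and 7218 counts (0.94 ± 0.135; adjusted p = 2.8e-04), and the fucosidase FUCA2 had 2072, 4140 and 3674 (0.94 ± 0.144; adjusted p = 5.0e-04). Both hairpin libraries were well above the control for all 3 genes. Under hairpins 2 and 3 GLB1 stood at 1.99 and 1.84 times the control, and FUCA2 at 2.06 and 1.77. MAN2B1, the lysosomal alpha-mannosidase and the most abundant glycosidase by RPKM (36.3 in the control), had 12124, 19056 and 20004 counts (0.71 ± 0.139; adjusted p = 0.00374). GUSB, the beta-glucuronidase, had 5375, 7282 and 7986 (0.53 ± 0.131; adjusted p = 0.0192). HEXA, FUCA2 and MAN2B1 share 10.1%, 13.6% and 13.1% of their exon length with another gene. So do the called members CTSA (17.7%), IDS (16.5%) and IDUA (13.3%).

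IDUA, the alpha-iduronidase that opens dermatan and heparan sulfate chains, was the called member that fell. It had 2320 counts in the control, 1659 under hairpin 2 and 1661 under hairpin 3, at 0.738 and 0.713 times the control (-0.46 ± 0.134; adjusted p = 0.0427). Both hairpin libraries were below the control by nearly the same amount. The call was lost with DESeq2, with robust empirical Bayes and with the filter at a mean of 1 CPM (adjusted p = 0.179, 0.0503 and 0.0707; all alternatives 0.0216 to 1). The 7 glycosidases that did not pass all had positive log2 fold changes: FUCA1 0.44, GALC 0.41, MANBA 0.33, GLA 0.33, NEU1 0.25, GAA 0.23 and NAGLU 0.17, with standard errors of 0.129 (MANBA) to 0.197 (FUCA1). GAA, the acid alpha-glucosidase whose window is printed above, had 2254, 2525 and 2687 counts.

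Sulfatases remove sulfate groups from glycans and lipids, and 3 of the 4 tested rose. IDS, the iduronate sulfatase, had 1466, 3012 and 2297 counts in the control and under hairpins 2 and 3 (0.88 ± 0.172; adjusted p = 0.00347). ARSB, which acts on dermatan and chondroitin sulfate, had 3868, 5889 and 6014 (0.64 ± 0.131; adjusted p = 0.00483). GALNS, the galactosamine sulfatase, had 1966, 3333 and 2531 (0.60 ± 0.168; adjusted p = 0.0355). Its hairpins differed in size, at 1.75 and 1.28 times the control, and the call was lost with DESeq2, with robust empirical Bayes and with the filter at a mean of 1 CPM (adjusted p = 0.0678, 0.0989 and 0.114; all alternatives 0.0138 to 1). ARSA, the cerebroside sulfatase, had 817, 897 and 910 counts (0.17 ± 0.158) and did not pass. SGSH, the heparan sulfamidase, had 1, 9 and 2 counts and was not tested; the ratio to the control was 9.29 under hairpin 2 (exact 95% counting interval 1.29 to 407) and 1.99 under hairpin 3 (0.104 to 118).

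Of 5 genes for lipid breakdown 4 rose. PSAP, the precursor of the saposins that present sphingolipids to their hydrolases, had the highest level per exon length of the set, at 135 RPKM in the control, 238 under hairpin 2 and 245 under hairpin 3. Its counts were 27197, 46440 and 49472 (0.84 ± 0.158; adjusted p = 0.00275). SMPD1, the acid sphingomyelinase, was far less abundant and went from 164 counts to 386 and 354 (1.19 ± 0.232; adjusted p = 0.00339). GM2A, the activator that lifts GM2 ganglioside to beta-hexosaminidase, had 1574, 2830 and 2291 counts (0.73 ± 0.160; adjusted p = 0.00830), and the ceramidase ASAH1 had 3774, 5325 and 5309 (0.52 ± 0.131; adjusted p = 0.0207). The hairpin libraries were above the control for each of the 4. LIPA, the acid lipase for cholesteryl esters, did not pass (3176, 4086 and 3625 counts; 0.30 ± 0.139). NPC1 and NPC2, which carry cholesterol out of the lysosome, did not pass either, with 2790, 2641 and 2529 counts for NPC1 (-0.09 ± 0.133) and 1813, 2221 and 2376 for NPC2 (0.36 ± 0.137).

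Among 6 membrane proteins CD68 and LAMP2 rose. CD68, a heavily glycosylated protein of phagocyte lysosomes, had 849 counts in the control, 1535 under hairpin 2 and 1543 under hairpin 3 (0.88 ± 0.151; adjusted p = 0.00135), and shares 81.7% of its exon length with AC016876.2 on the same strand, so its counts are uncertain. LAMP2, a major glycoprotein of the limiting membrane, had 10929, 15675 and 14513 (0.49 ± 0.140; adjusted p = 0.0398), a call lost with upper quartile factors and with the filter at a mean of 1 CPM (edgeR adjusted p = 0.0602 and 0.0777; all alternatives 0.0287 to 1). Its partner LAMP1 had 14448, 20067 and 18507 counts and a similar log2 fold change (0.44 ± 0.143; adjusted p = 0.0723) that did not pass. CLN3 was near the threshold at 0.49 ± 0.164 (adjusted p = 0.0824; all alternatives 0.0499, which is the legacy fit, to 1). SCARB2, the receptor that brings glucocerebrosidase to lysosomes, had 0.26 ± 0.144. MCOLN1, a calcium channel of the lysosome, had 510, 503 and 552 counts (0.07 ± 0.181). Of the secreted regulators 2 of 2 rose: CST3, the secreted inhibitor cystatin C of cysteine cathepsins, with 1516, 2744 and 2747 counts (0.88 ± 0.139; adjusted p = 6.3e-04), and GRN, which encodes progranulin, with 10520, 15183 and 14551 (0.52 ± 0.137; adjusted p = 0.0259). The GRN call was lost with the filter at a mean of 1 CPM (edgeR adjusted p = 0.0571; all alternatives 0.0155 to 1).

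The V-ATPase joins a membrane sector (V0) that conducts protons to a soluble sector (V1) that burns ATP. Of the 6 subunit genes, 2 rose, a V0 subunit and an accessory protein. ATP6V0D1, the d subunit that links the sectors, had 2393 counts in the control, 5221 under hairpin 2 and 3880 under hairpin 3 (0.95 ± 0.173; adjusted p = 0.00200), or 2.25 and 1.61 times the control. ATP6AP1, an accessory protein of pump assembly, had 5666, 9565 and 8510 (0.70 ± 0.141; adjusted p = 0.00462). ATP6V0A1, the proton-channel a subunit, fell just short with 2357, 3423 and 3013 counts (0.47 ± 0.143; adjusted p = 0.0514), and passed with library size alone, RLE factors and the legacy fit (edgeR adjusted p = 0.0414, 0.0417 and 0.0307; all alternatives 0.0307 to 1). The 3 V1 genes had smaller values that did not pass: ATP6V1A 0.28 ± 0.137 (2200, 2707 and 2558 counts), ATP6V1B2 0.33 ± 0.132 (3824, 4858 and 4591) and ATP6V1H 0.23 ± 0.132 (2546, 2904 and 2988). Whether the V0 and V1 genes differ from each other was not tested.

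Neither mannose 6-phosphate receptor passed. M6PR, the cation-dependent receptor, had 7704, 9720 and 9952 counts (0.37 ± 0.131; adjusted p = 0.0975) and shares 29.3% of its exon length with PHC1 on the other strand. IGF2R, the larger receptor that also clears IGF2, had 11939, 13647 and 11208 (0.08 ± 0.15; adjusted p = 0.827). IGF2R was the tested member whose hairpin libraries lay on opposite sides of the control, at 1.18 times under hairpin 2 and 0.935 times under hairpin 3.

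The hairpins differed in how far they raised the set. For 41 of 54 tested members (75.9%) the level was higher under hairpin 2 than under hairpin 3, against 49.8% of all genes tested, and the median log2 fold change of the 54 was 0.50 with hairpin 2 alone and 0.39 with hairpin 3 alone. Among the 24 that rose, the ratio of hairpin 2 to hairpin 3 was highest for ATP6V0D1, at 2.25 and 1.61 times the control, and HEXA, PSAP, GUSB and MAN2B1 were slightly higher under hairpin 3. The summed eosinophil, basophil and mast cell markers given above were also higher under hairpin 2. With 1 library for each hairpin this is a difference between 2 libraries, and it was not tested. Across the 54 tested members the log2 fold change and the mean RPKM had a Spearman rho of 0.36, a description over genes that share the same 3 libraries.

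**Figure D4:**
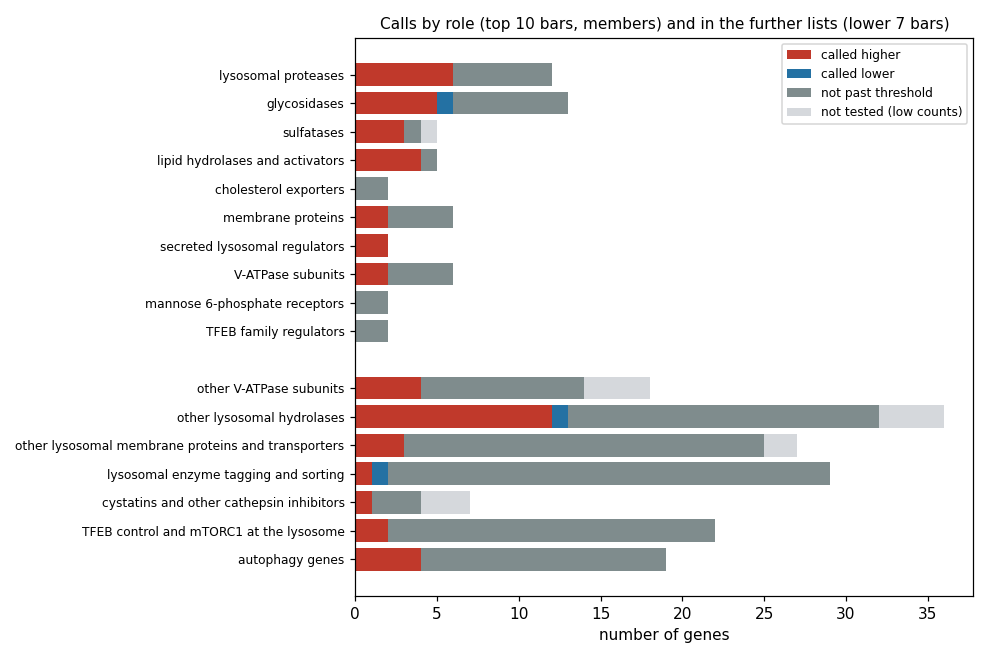
Number of genes called higher, called lower, not past the threshold and not tested for low counts, for the 10 roles of the members (upper bars) and the 7 further lists (lower bars). Of the tested proteases 6 of 12 were called higher, and of the other hydrolases 12 of 32.

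Further genes of the same pathways, 157 in 7 lists, were tested in the same fit. Of 144 with enough counts 27 rose and 2 fell, with a median log2 fold change of 0.20, where 5.49% of all genes tested were higher and 3.21% lower. These lists, too, were chosen with earlier results of these data known, and their difference from the members was not tested. Other hydrolases accounted for 12 of the 27 rises, of 32 tested, and 1 fall. The serine carboxypeptidase SCPEP1 had 2966 counts in the control, 8746 under hairpin 2 and 7676 under hairpin 3 (1.49 ± 0.148; adjusted p = 1.1e-05), and CTSE, an aspartic protease of endosomes, 4, 26 and 46 (3.15 ± 0.747; adjusted p = 0.0138). CTSE passed under 5 of the 6 alternatives with a filter that gave it a value. IFI30, the thiol reductase of antigen processing, rose from 33 counts to 144 and 84 (1.81 ± 0.433; 40.2% of its exons shared), and the hyaluronidase family gene HYAL3 from 1120 to 2609 and 2055 (1.08 ± 0.170). HGSNAT, the membrane acetyltransferase of heparan sulfate breakdown, fell from 1812 to 948 and 1079 (-0.82 ± 0.144; adjusted p = 0.00160). IFI30 passed under 5 of the 8 alternatives that kept a filter. Among 14 tested V-ATPase subunits outside the set, 4 rose and 0 fell: ATP6V1C2 (0.78 ± 0.133), ATP6V0E1 (0.67 ± 0.135), ATP6AP2 (0.65 ± 0.134) and ATP6V0B (0.57 ± 0.131). ATP6V1C2 shares 29.7% of its exon length with the more strongly counted PDIA6 on the other strand, and strand use in counting is not given, so its counts are uncertain.

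Calls in the membrane, sorting, inhibitor, control and autophagy lists stand beside the same shares over all genes, 5.49% higher and 3.21% lower, and no list was tested against another. Of 25 further membrane proteins and transporters 3 rose, the tetraspanin CD63 (2825, 5115 and 4529 counts; 0.79 ± 0.142), OSTM1 (0.68 ± 0.151) and the amino acid transporter SLC36A1 (0.65 ± 0.165). Of 29 genes for tagging and sorting of enzymes VPS18 of the tethering complexes rose (0.67 ± 0.142) and LYST, which sets the size of lysosomes and granules, fell from 12214 counts to 7798 and 8986 (-0.52 ± 0.131; adjusted p = 0.0192). Among 4 tested inhibitors of cathepsins CSTA, cystatin A, rose (0.48 ± 0.132), as it did under 5 of the 8 alternatives with a filter. In the list of TFEB control and mTORC1, 2 of 22 rose: TFEC, a myeloid relative of TFEB, from 24 counts to 136 and 54 (2.0 ± 0.557; adjusted p = 0.0342) and FNIP2 (0.57 ± 0.166; adjusted p = 0.0446), which passed under 4 and 3 of the 8 alternatives that kept a filter. MITF, another TFEB relative, had 241, 228 and 254 counts (0.02 ± 0.227) and the kinase MTOR 0.10 ± 0.129. Of 19 autophagy genes 4 rose, WIPI1 (329, 896 and 797 counts; 1.38 ± 0.189), GABARAPL1 (0.94 ± 0.193), SQSTM1, the cargo receptor p62 (0.62 ± 0.140), and GABARAPL2 (0.47 ± 0.139), the last under 3 of the 8 alternatives with a filter. WIPI1 shares 24.3% of its exon length with ARSG on the other strand, and SQSTM1 shares 20.7% with MRNIP.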

How the data were processed

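RNA sequencing of 3 NB4 libraries was used (1 control shRNA, 2 ARID1B shRNA). The authors deposited whole-number read counts per Ensembl gene ID, not normalised. STAR, featureCounts, Cufflinks and build hg19 are named without versions or roles, per the submitters' processing notes. The sources used here do not give the annotation release or the strand setting. GENCODE 29 (another build) gave names to 52338 of 57773 IDs, exon lengths and exon overlaps, with no coordinates. IDs without a name held 1.47% to 1.56% of counts and stayed in the library sizes and tests.

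Counts were filtered with filterByExpr (minimum count 10), scaled by TMM (factors 0.9903 to 1.0074) and fitted in edgeR 4.0.16 (R 4.3.3) by quasi-likelihood with legacy = FALSE, ARID1B shRNA against control shRNA, two-sided, adjusted over all 20382 genes by Benjamini-Hochberg at 0.05. The fit has 1 residual degree of freedom, the difference between the hairpins, and the lone control is assumed to vary like them. The test was checked on simulated data with the same dispersion (scatter beyond counting error) for every gene and changes of 2-fold or more. Smaller changes, as in most called members, were not simulated. The 2 knockdown libraries differed by more than sampling noise (chi-square per degree of freedom 27.9) and were counted as 2 samples. SE is the log2 fold change over the square root of F. RPKM is TMM-scaled CPM per kilobase of merged exons. Counting intervals (95%) are exact for ratios and Wilson for shares, and cover counting error only, as reads carry no molecular identifiers. DESeq2 1.42.0 and other settings served as alternatives.

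The members and lists were chosen with earlier results of these data known. Named with counts are called members, TFEB and TFE3, the mannose 6-phosphate receptors, the V-ATPase genes and, by role, the most abundant member and those nearest the threshold; from each further list, up to 4 called genes with the largest change. MRC1 of the monocyte and macrophage markers had no matching row. Of the marker lists not described in the report, T, B and NK cells had 2 of 5 tested genes higher and epithelial, fibroblast and packaging cells 1 of 4 lower.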

Additional observations from a re-analysis of the deposited data

How the results depend on the processing

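Each of 9 alternatives refitted the test. Without a filter on low counts 0 genes were called in edgeR (3218 at an unadjusted p under 0.05), so 0 members and 0 further lysosomal genes were called higher or lower, and ARID1B had -1.23 with an adjusted p of 0.465. Asking for more than a 1.5-fold change left 325 genes higher and 132 lower, 4 members higher and 0 lower, and 3 further lysosomal genes higher and 0 lower. A mean CPM of at least 1 left 622 genes higher and 338 lower, 19 of 53 members higher and 0 lower, and 16 further lysosomal genes higher. DESeq2 called 277 genes lower and 0 members lower, and robust empirical Bayes 0 members lower. With upper quartile factors 2 members (IDUA and CTSH) and 5 further genes were lower, and with library size alone 2 and 4. Of all calls, 63.1% were higher in edgeR with TMM, 53.8% with upper quartile factors and 73.7% with DESeq2; 58.6% to 71.1% with the others that made calls. The count of higher members stayed within 1.5 times of 24 in the other 7 alternatives (19 to 26), and no called member changed sign under any alternative or with either hairpin alone. The cause of these differences was not tested. The median of the members was 0.50 with hairpin 2 alone and 0.39 with hairpin 3 alone. No paired analysis was possible because the groups share no replicate numbers. LGMN and SGSH had at most 11 counts in any library, too few to show a change of modest size, and the lone control library limits every call.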

Other observations

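Grouping the enzymes by substrate, a grouping chosen after the values were seen, showed a split among glycan pathways. Among genes that take apart heparan sulfate, IDS (0.88 ± 0.172, log2 fold change with SE) rose, IDUA (-0.46 ± 0.134) and HGSNAT (-0.82 ± 0.144) fell, NAGLU (0.17 ± 0.148) did not pass, and SGSH had 1, 9 and 2 counts. Among genes for ganglioside breakdown, GLB1 (0.94 ± 0.135), HEXA (1.0 ± 0.137), GM2A (0.73 ± 0.160) and PSAP (0.84 ± 0.158) rose, whereas the sialidase NEU1 (0.25 ± 0.155) did not pass. These are descriptions of single genes from the fit over all genes, and the pathways were not tested as groups.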
